A study of Homo sapiens with 4 samples.

Results

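The genes described here encode the proteins of the cytosolic ribosome, together with their close paralogs. They were chosen by symbol and had at least 1 transcript in the deposited table of estimated counts. The symbols were RPLP0, RPLP1, RPLP2, RPSA, and RPL or RPS with a number and at most 1 letter (A, X or L) after it. A further number could follow that letter, as in RPL22L1. Of 84 such symbols, 82 had a transcript, and RPL3L and RPL10L, whose transcripts were not in that table, have no value. The 82 genes are 31 of the small 40S subunit, 46 of the large 60S subunit with the P stalk, and 5 paralogs (RPL7L1, RPL22L1, RPL26L1, RPL39L and RPS27L), out of 15221 genes with a transcript. All 82 passed the filter on low counts and were among the 15101 genes tested.

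The study asked what the histone variant H2A.Z does in pancreatic ductal adenocarcinoma. RNA-seq was available for 2 libraries of PANC-1, a human pancreatic adenocarcinoma line that was not transduced, and 2 libraries of PZT-2, a single clone selected from PANC-1 after lentiviral delivery of 2 shRNAs, one against the 3′ untranslated region of H2A.Z.1 and one against exon 4 of H2A.Z.2, so that all 3 isoforms were targeted. Both lines were grown in DMEM with fetal bovine serum at like passages, and the libraries of cells with a scrambled shRNA are not analysed here. PZT-2 is 1 clone and differs from PANC-1 also in its puromycin selection and vector, so the knockdown and the choice of the clone cannot be told apart. The study calls the 2 libraries of each line biological replicates, but the labels do not say whether they were separate cultures, so the p-values may measure technical spread only.

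The ribosome is built in the nucleolus from ribosomal RNA and one copy each of nearly all its proteins, with several copies of the P stalk proteins, and its protein genes lie scattered over the chromosomes. Their mRNAs are among the most abundant of a growing cell and mostly begin with a run of pyrimidines, the 5′ terminal oligopyrimidine (TOP) motif, through which mTOR signalling and LARP1 set their translation and stability. Some ribosomal proteins have a paralog that can take the parent's place, or that has taken on another task, as RPL7L1 has in assembly of the large subunit.

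The start sites of genes compared below are shown because some carry this motif and others lack it. Each line gives 10 bases before the RefSeq start and 20 bases from it, on the coding strand, 5′ to 3′, with capitals marking the unbroken pyrimidines that begin at the first transcribed base. For genes with several listed starts, the one with the longest such run beginning with C is shown. Where no listed start began with C, the first by position is shown.
RPL22: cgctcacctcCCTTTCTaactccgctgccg
RPL22L1: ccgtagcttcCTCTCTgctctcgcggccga
RPL26: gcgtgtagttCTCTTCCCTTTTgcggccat
RPL26L1: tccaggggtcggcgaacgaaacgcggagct
RPS27: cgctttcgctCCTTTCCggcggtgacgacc
RPS27L: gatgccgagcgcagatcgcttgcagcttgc
RPL7L1: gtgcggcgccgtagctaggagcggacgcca
RPL39: ccgccagcttCCCTCCTCTTCCTTTCTCCg
RPL10: ggaggagcgcCTCTTTCCCTTCggtgtggt
RPL24: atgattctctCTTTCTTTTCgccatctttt
RPLP0: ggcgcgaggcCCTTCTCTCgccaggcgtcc
RPS16: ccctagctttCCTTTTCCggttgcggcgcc
RPL15: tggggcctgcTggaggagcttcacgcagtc

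These windows lie, on GRCh38.p14 in RefSeq, at chr1:6199576-6199605 (RPL22, minus strand), chr3:170870176-170870205 (RPL22L1, minus), chr17:8383174-8383203 (RPL26, minus), chr5:172958719-172958748 (RPL26L1, plus), chr1:153990752-153990781 (RPS27, plus), chr15:63157458-63157487 (RPS27L, minus), chr6:42879606-42879635 (RPL7L1, plus), chrX:119791611-119791640 (RPL39, minus), chrX:154398367-154398396 (RPL10, plus), chr3:101686699-101686728 (RPL24, minus), chr12:120201092-120201121 (RPLP0, minus), chr19:39435930-39435959 (RPS16, minus) and chr3:23916535-23916564 (RPL15, plus). Each spans the promoter edge and the first bases of the annotated first exon. Among the paralogs shown, RPL22L1 began with C and 6 pyrimidines, whereas RPL26L1, RPS27L and RPL7L1 began with G. RPL15, one of the genes that rose most, began at the start shown with a single T followed by G. None of its 3 listed starts began with C. Within 10 bases of another of these starts, however, a run of 13 pyrimidines began with C. RPL39 had the longest run shown, 19 pyrimidines. Of the 82 genes, 66 had at least 1 start in the RefSeq table. Of these, 47 (71.2%) had a start with C followed without a break by C or T for at least 5 bases in all, against 5.14% of the 27303 genes of the table. Counted per listed start, the share was 57.3% of 82 starts of these genes and 4.07% of all 35114 starts. With such a run allowed to begin anywhere within 10 bases of a listed start, the shares were 87.9% of the 66 genes and 38.4% of all genes. A match in these letters is a description of the annotated start, not of the start used in PANC-1.

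The targeted genes were checked first. The normalized count of H2AFZ, the gene of H2A.Z.1, was 6386 and 6031 in PANC-1 and 2211 and 2258 in PZT-2, a log2 change of -1.47 ± 0.06 (SE, n = 2 against 2, edgeR adjusted p = 6.15e-05). H2AFV, the gene of both H2A.Z.2 isoforms, was at 3343 and 3450.5 in PANC-1 and 2589 and 2716 in PZT-2, a change of -0.36 ± 0.06 (adjusted p = 0.00563). The libraries held 12861446 to 15717529 estimated counts, and the 2 cell lines did not overlap for either gene. Of the 8 ductal or epithelial markers, 5 fell and 1 rose, and their summed TPM was 7330 to 7370 in PANC-1 and 3855 to 3934 in PZT-2, with KRT8, KRT18 and KRT19 high in both lines. Of 5 mesenchymal markers only 3 were tested, of which 2 fell, and the summed TPM of the list went from 6352–6408 to 4477–4589. Markers of acinar and endocrine cells had no transcript in the table and so have no value, and those of leukocytes summed to at most 0.278 TPM in PANC-1 and 2.59 TPM in PZT-2, with CD14 as the only member above the filter. The part of these shifts in the results on ribosomal protein genes was not tested. In bulk RNA, fewer cells of one kind and less RNA per cell cannot be told apart.

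Summed over the set, ribosomal protein mRNA differed less between the lines than between the 2 PANC-1 libraries, while single genes rose or fell. The 82 genes together held 6.57% and 6.34% of the estimated counts in PANC-1 and 6.29% and 6.34% in PZT-2, a difference of -0.144 percentage points (exact permutation test, two-sided, p = 0.33, the smallest p that 2 against 2 libraries can give). Per length, they held 20.2% and 19.9% of all transcripts, counted in TPM (transcripts per 1000000) in PANC-1 and 19.9% and 20% in PZT-2. In normalized counts, PANC-1 replicate 1 was above replicate 2 for 63 of the 82 genes, with a median log2 ratio of replicate 2 to replicate 1 of -0.07, against 0.01 between the PZT-2 libraries.

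Of the 82 genes, 18 rose and 26 fell in PZT-2 and 38 passed no test at an adjusted p of 0.05. Among all genes tested, 14.7% rose and 13.7% fell, against 22% and 31.7% of the ribosomal protein genes. In normalized counts, both PZT-2 libraries were above both PANC-1 libraries for 28 of them (33.3% of all genes) and below for 38 (32.9% of all genes). DESeq2 on the same genes called 20 higher and 28 lower, where it called 21.3% of all genes. The median log2 fold change was -0.04, beside 0.00 over all genes, and the values ran from -0.82 (RPL10) to 0.84 (RPL22L1), so that no gene changed by 2-fold. These genes are deeply counted, and their standard errors were mostly near 0.05. Of the 440 genes above 300 TPM outside the set, 16.6% rose and 35.2% fell, with a median of -0.10. The counts rest on both PZT-2 libraries. Without PZT-2 replicate 1, 10 rose and 7 fell, and without PZT-2 replicate 2, 11 rose and 5 fell, while 16.6% and 13.7% of all genes were called. In 15 genes the call held without any 1 library, 10 of them higher (RPL15, RPL22L1, RPL24, RPL29, RPL31, RPL32, RPL35A, RPL39L, RPL4 and RPSA) and 5 lower (RPL10, RPL39, RPLP0, RPS15 and RPS4X).

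**Figure D1:**
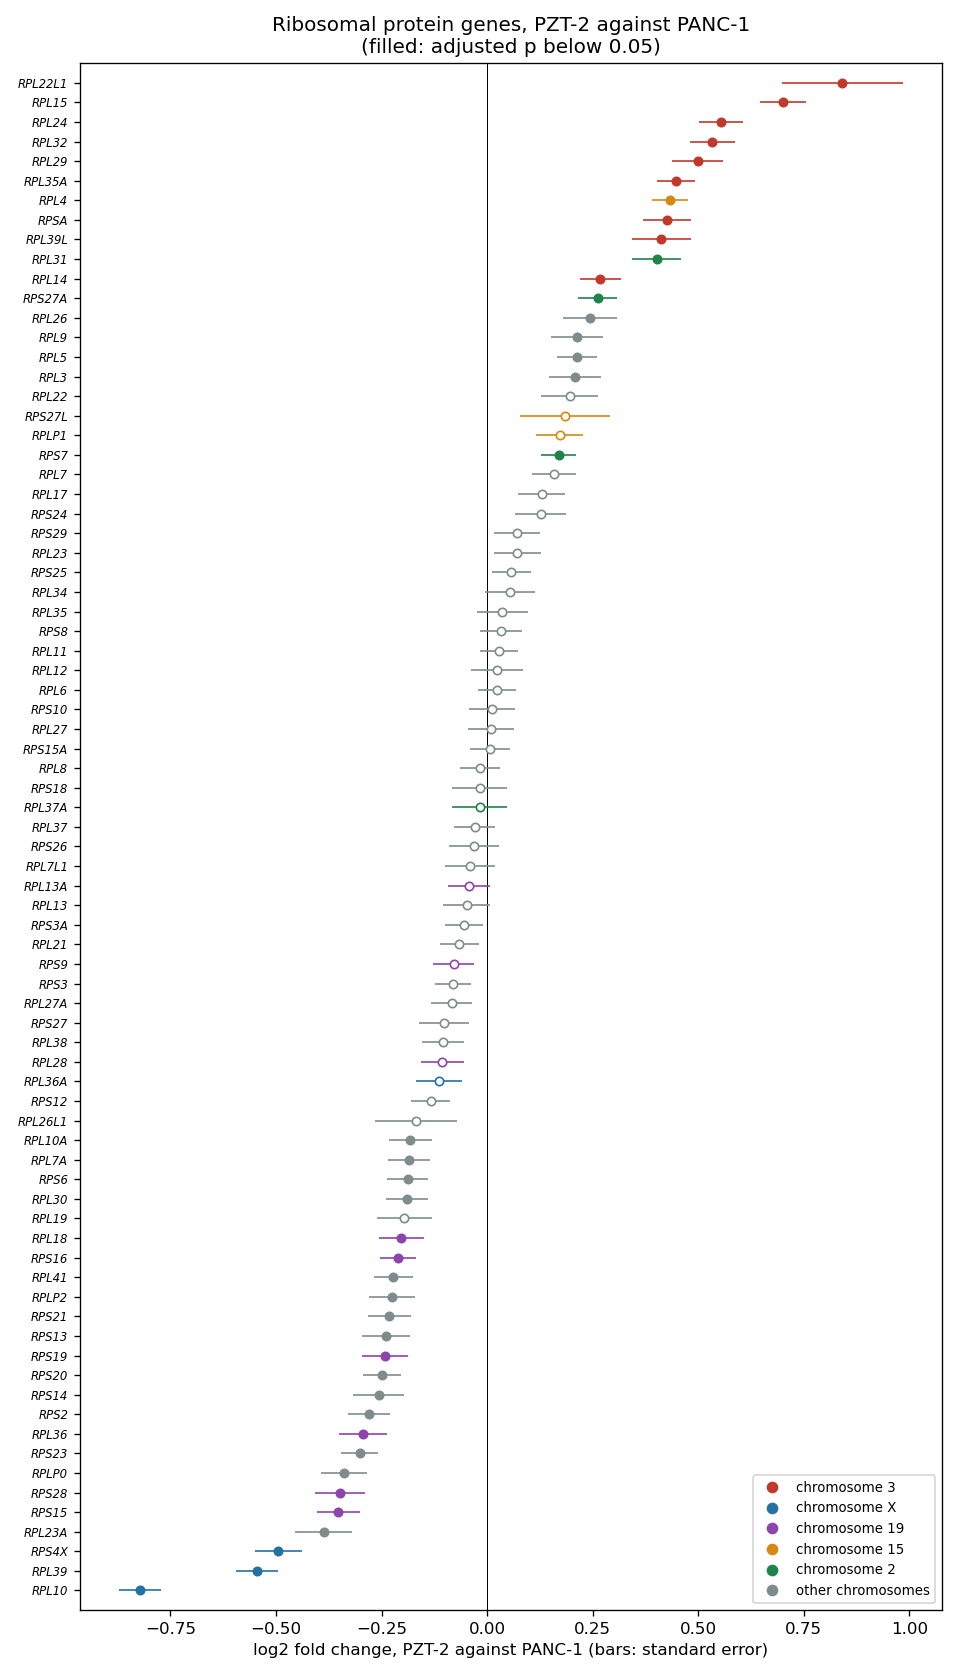
Log2 fold change of 78 of the 82 ribosomal protein genes and paralogs (horizontal axis, PZT-2 against PANC-1) with its standard error, ordered by value and coloured by chromosome; filled points have an adjusted p below 0.05. All 9 genes on chromosome 3 lie to the right of 0.25, and the 3 lowest, RPL10, RPL39 and RPS4X, are on chromosome X.

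With all 4 libraries, the mRNAs of small subunit proteins fell more often than they rose. Of the 31 genes, 14 (45.2%) fell and 4 (12.9%) rose, with a median log2 fold change of -0.10. Among these calls, the falls of RPS15 and RPS4X and the rise of RPSA held without any 1 library, and the others did not. Over all genes tested, 13.7% fell and 14.7% rose, and of the 440 genes above 300 TPM outside the set, 35.2% fell and 16.6% rose. The share of counts of the 31 genes was 3.23% and 3.11% in PANC-1 and 2.98% and 2.99% in PZT-2 (exact permutation p = 0.33). Of the 46 large subunit and stalk genes 12 rose and 12 fell (26.1% each), with a median of -0.00, and their share of counts was 3.31% and 3.19% in PANC-1 and 3.27% and 3.31% in PZT-2 (exact permutation p = 1). In TPM they held 9.39% and 9.28% in PANC-1 and 9.58% and 9.62% in PZT-2, without overlap (difference 0.268 points, exact permutation p = 0.33), and the small subunit genes 10.7% and 10.6% against 10.3% and 10.3% (difference -0.347 points, p = 0.33). Whether the 2 subunits differ was not tested.

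RPS16, whose C-terminal tail reaches the peptidyl-tRNA site, was the most abundant of all genes per length. Its level was 28991 and 27275 TPM in PANC-1 and 24371 and 24040 TPM in PZT-2, about 4 times that of the next ribosomal protein gene, RPS2, at a mean of 6409 TPM, and RPLP2 followed at 6307 TPM. In normalized counts it had 131121 and 121536 in PANC-1 and 109867 and 108301 in PZT-2, a fall of 0.21 ± 0.04 on the log2 scale (adjusted p = 0.0128). The lines did not overlap. The share of RPS16 differed by -0.104 percentage points of the counts and by -0.278 points of the TPM. Without it, the other 81 genes held 17.3% and 17.1% of the TPM in PANC-1 and 17.4% and 17.4% in PZT-2 (difference 0.207 points, exact permutation p = 0.33). It was not called without PZT-2 replicate 1 (adjusted p = 0.0752) or replicate 2 (0.108). RPS2, at the mRNA entry of the small subunit, fell by 0.28 ± 0.05 (48148 and 43989 against 37677 and 38213, adjusted p = 0.00866), but not without PZT-2 replicate 1 (0.0643) or replicate 2 (0.0618).

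The 2 small subunit genes with the largest falls were RPS4X and RPS15. RPS4X, which is encoded on the X chromosome and contacts 18S ribosomal RNA, had normalized counts of 13447 and 12432 in PANC-1 and 9336 and 9034 in PZT-2, a fall of 0.49 ± 0.05 (adjusted p = 0.00164). RPS15, needed for nuclear export of the small subunit precursor, went from 7820 and 7439 to 5935 and 6014, a fall of 0.35 ± 0.05 (adjusted p = 0.00391). In both genes the PANC-1 libraries lay well above the PZT-2 libraries. RPS19, the gene most often mutated in Diamond-Blackfan anaemia, fell by 0.24 ± 0.05 (9787 and 9037 against 8013 and 7909, adjusted p = 0.0198). RPS6, the small subunit protein that S6 kinases phosphorylate, fell by 0.19 ± 0.05 (5480 and 5436 against 4815 and 4766, adjusted p = 0.0296). The lines did not overlap for these genes either, yet neither call held with 1 PZT-2 library: the adjusted p without replicate 1 or replicate 2 was 0.101 and 0.134 for RPS19 and 0.160 and 0.198 for RPS6. RPS27, a zinc finger protein, had counts of 7488 and 6906 in PANC-1 and 6572 and 6838 in PZT-2, a log2 change of -0.10 ± 0.06 that passed only without PANC-1 replicate 2 (adjusted p = 0.245, and 0.0354 without it).

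Among the 4 small subunit genes that rose was RPSA, which is both a ribosomal protein and known as the laminin receptor. It had normalized counts of 13741 and 12654 in PANC-1 and 17238 and 18236 in PZT-2, a rise of 0.43 ± 0.06 (adjusted p = 0.00307). Others, named after their values were seen, were RPS27A (0.26), which is made as a fusion with ubiquitin, and RPS7 (0.17). RPS7 was not called without PZT-2 replicate 1 (adjusted p = 0.149) or replicate 2 (0.193), and RPS27A not without replicate 1 (0.0828).

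In the large subunit, RPL10 fell most of all 82 genes. RPL10, which joins the 60S subunit last, in the cytoplasm, and shapes the peptidyl transferase centre, had normalized counts of 27596 and 25611 in PANC-1 and 15016 and 15070 in PZT-2. The fall was 0.82 ± 0.05 on the log2 scale (adjusted p = 0.000245), and in level per length it went from 1575 and 1468 TPM to 850 and 851 TPM. RPL39, a very short protein in the wall of the exit tunnel, fell by 0.54 ± 0.05 (11074 and 10476 against 7466 and 7307, adjusted p = 0.000900). RPL23A, at the mouth of that tunnel, fell by 0.39 ± 0.07 (9832 and 9380 against 7778 and 6911, adjusted p = 0.00780), though not without PZT-2 replicate 2 (adjusted p = 0.0573). In all these genes both PZT-2 libraries were lower than both PANC-1 libraries.

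The largest rises in the large subunit were of genes on chromosome 3. RPL15, like RPL35A one of the genes mutated in Diamond-Blackfan anaemia, had normalized counts of 9870 and 9188 in PANC-1 and 15076 and 15885 in PZT-2, a rise of 0.70 ± 0.06 (adjusted p = 0.000541). RPL24, which forms a bridge to the small subunit, rose by 0.55 ± 0.05 (6257 and 6666 against 9395 and 9586, adjusted p = 0.000968). RPL32 rose by 0.53 ± 0.05 (6100 and 5725 against 8445 and 8666, adjusted p = 0.00116). For each of the 3, the lower PZT-2 library was well above the higher PANC-1 library. RPL29, a heparin-binding protein of the subunit surface, rose by 0.50 ± 0.06 (5781 and 5247 against 7775 and 7804, adjusted p = 0.00217). RPL35A rose by 0.45 ± 0.05 (7181 and 7112 against 9645 and 9848, adjusted p = 0.00121). RPL14 rose least, by 0.27 ± 0.05 (5764 and 5576 against 6857 and 6792, adjusted p = 0.00888), and was not called without PZT-2 replicate 1 (0.0761) or replicate 2 (0.0738).

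RPL5 and RPL11, which form with 5S ribosomal RNA the particle that binds MDM2, differed in their calls. RPL5 had normalized counts of 5761 and 5771 in PANC-1 and 6586 and 6777 in PZT-2, a rise of 0.21 ± 0.05 (adjusted p = 0.0193) that was not called without PZT-2 replicate 1 (0.0975) or replicate 2 (0.162). RPL11 had 9749 and 9526 in PANC-1 and 9929 and 9721 in PZT-2, with overlapping lines and a log2 change of 0.03 ± 0.05 (adjusted p = 0.696). The difference between the 2 genes was not tested.

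The P stalk, which recruits the elongation factors, is made of RPLP0 and dimers of RPLP1 and RPLP2. RPLP0, its base, had normalized counts of 43386 and 39132 in PANC-1 and 32357 and 32872 in PZT-2, a fall of 0.34 ± 0.05 (adjusted p = 0.00596). RPLP2 had 20403 and 18784 in PANC-1 and 17118 and 16424 in PZT-2, a fall of 0.22 ± 0.05 (adjusted p = 0.0244). RPLP1 had 17561 and 15967 in PANC-1 and 18829 and 18936 in PZT-2, a log2 change of 0.17 ± 0.06 (adjusted p = 0.0605). The lines did not overlap in any of the 3 genes, with PZT-2 lower in RPLP0 and RPLP2 and higher in RPLP1. The call for RPLP2 was lost without PZT-2 replicate 1 (0.0841) or replicate 2 (0.172), and RPLP1 passed without PANC-1 replicate 1 (0.00292), with DESeq2, with a filter of 10 counts in all libraries and with length-scaled counts.

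All 9 genes on chromosome 3 rose, with a median log2 fold change of 0.50, and among the other 827 genes tested on that chromosome 47.8% rose, with a median of 0.43. The 9 lie on both arms: RPL32, RPL15, RPSA, RPL14 and RPL29 on the short arm (changes of 0.27 to 0.70), RPL24 near the centromere on the long arm, and RPL22L1, RPL39L and RPL35A towards its end (0.41 to 0.84). Of the 4 genes on chromosome X, RPL10, RPL39 and RPS4X fell, and 35.7% of the other 471 genes of that chromosome fell, with a median of -0.29. The fourth, RPL36A, had normalized counts of 4579 and 4723 in PANC-1 and 4180 and 4416 in PZT-2 (-0.11 ± 0.06, adjusted p = 0.175). With the genes of both chromosomes left out, 9 of 69 rose and 23 fell.

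Chromosome 19 carries more of these genes than any other, and most of them fell. All 12 genes there had a log2 fold change below 0 and 9 fell (RPS15, RPS28, RPL36, RPS19, RPS16 and RPL18 among them), with a median of -0.25, whereas 17.3% of the other 1118 genes of the chromosome fell, with a median of -0.05. This group was described after its values were seen, and only RPS15 of it was called without any 1 library. On chromosome 15, all 4 genes had values above 0 and 2 rose. RPL4, with a long loop reaching into the exit tunnel, had 26055 and 24938 in PANC-1 and 33917 and 34906 in PZT-2, a rise of 0.43 ± 0.04 (adjusted p = 0.00109). The other 526 genes of chromosome 15 had a median of 0.24, and 27.2% rose.

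**Figure D2:**
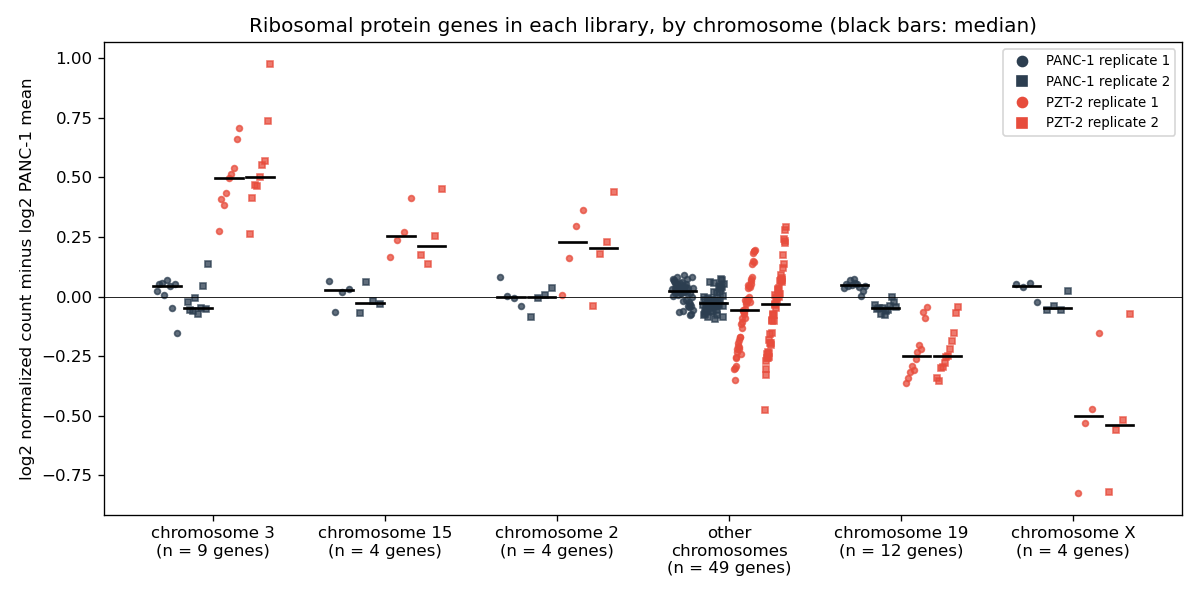
Log2 normalized count of each ribosomal protein gene in each of the 4 libraries, minus the log2 of its PANC-1 mean (vertical axis), grouped by chromosome; black bars are medians over genes. In both PZT-2 libraries the 9 genes of chromosome 3 are above 0, and the 12 genes of chromosome 19 and the 4 of chromosome X are below 0.

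Each gene was also set beside its neighbours. The median log2 fold change of the other genes tested within 5 Mb of each ribosomal protein gene (13 to 245 genes) had the same sign as the gene itself in 58 of 82, with a Pearson r of 0.74 and a Spearman rho of 0.57 over the 82 genes. Without chromosomes 3 and X, r was 0.41 and rho 0.31 over 69 genes. Genes near each other share neighbours and all values come from the same 4 libraries, so these are descriptions without a test. Some genes were far from their surroundings. RPL22L1 changed by 0.84 beside neighbours at 0.23, RPL5 by 0.21 beside -0.21, RPL23A by -0.39 beside 0.02 and RPLP0 by -0.34 beside 0.01. RPL31, at 3399 and 3582 in PANC-1 and 4490 and 4732 in PZT-2, rose by 0.40 ± 0.06 (adjusted p = 0.00402) beside neighbours at 0.02. RPL36A, at -0.11, was above its neighbours at -0.44, and RPL14, at 0.27, was below its neighbours at 0.60.

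**Figure D3:**
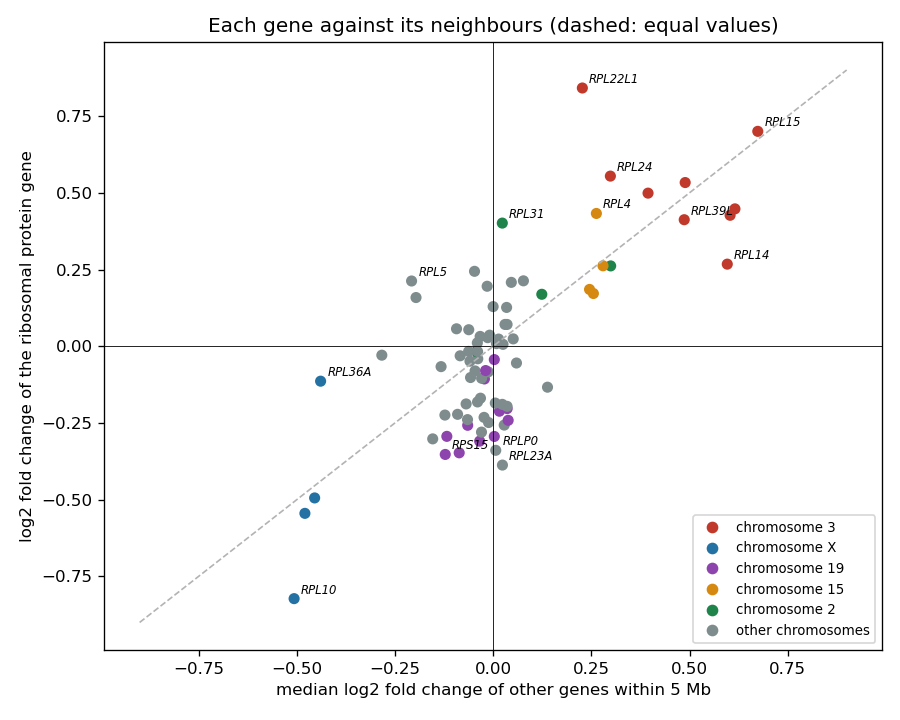
Log2 fold change of each ribosomal protein gene (vertical axis) against the median log2 fold change of the other genes within 5 Mb (horizontal axis), coloured by chromosome; the dashed line marks equal values. Genes of chromosome 3 lie at the upper right and those of chromosome X at the lower left, with RPL22L1 far above the line.

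The paralogs were expressed at under 10% of their parents' level, and RPL22L1, RPS27L (mean 34.1 TPM) and RPL26L1 (86.4 TPM) had the lowest levels of the set. RPL22L1 had the lowest level of all 82 genes, 13 and 15.9 TPM in PANC-1 and 23.4 and 28.1 TPM in PZT-2. In normalized counts, 196 and 239 in PANC-1 stood against 355 and 428 in PZT-2, the largest rise of the set (0.84 ± 0.14, adjusted p = 0.00705). Its parent RPL22 had 4329 and 4790 in PANC-1 and 5057 and 5389 in PZT-2, a log2 change of 0.20 ± 0.07 (adjusted p = 0.0765, and 0.00690 without PANC-1 replicate 2). Per length, RPL22L1 thus stood at 4.75% and 5.22% of RPL22 in PANC-1 and at 7.34% and 8.29% in PZT-2. A noncoding RefSeq transcript of RPL22L1 took 46.2% and 55.8% of its counts in PANC-1 and 57.3% and 58.9% in PZT-2, and with the most abundant transcript alone the gene was not called (adjusted p = 0.0611).

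RPL39L and its parent moved in opposite directions. RPL39L, best known from spermatogenesis and from tumours, had normalized counts of 832 and 771 in PANC-1 and 1063 and 1068 in PZT-2, a rise of 0.41 ± 0.07 (adjusted p = 0.00685), while RPL39 fell by 0.54. The level of RPL39L went from 3.5% and 3.39% of that of RPL39 in PANC-1 to 6.56% and 6.70% in PZT-2, which made this the largest change of the 5 ratios (0.95 on the log2 scale). Exact permutation of the 4 libraries gives p = 0.33 for each of the 5 ratios, the smallest value possible. RPL39L lies on chromosome 3, where neighbours had a median of 0.49, and RPL39 on chromosome X, where neighbours had a median of -0.48. Of the 726 31-base words of RPL39L transcripts, 51 (7.02%) also occur in RPL39, where they are 51 of 371 words. Reads from these words cannot be assigned uniquely. RPL39 had far more counts than RPL39L (11074 and 10476 in PANC-1), so the part of the RPL39L counts this affects is not known.

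The other paralogs did not pass the test. RPL26L1 had normalized counts of 415 and 453 in PANC-1 and 367 and 405 in PZT-2 (-0.17 ± 0.10, adjusted p = 0.245), while RPL26 rose by 0.24 ± 0.06 (4419 and 4770 against 5256 and 5630, adjusted p = 0.0308). The ratio of RPL26L1 to RPL26 was 6.10% and 6.12% in PANC-1 and 4.49% and 4.61% in PZT-2, and these values did not overlap between the lines. The call for RPL26 did not hold without PZT-2 replicate 1 (0.0728) or replicate 2 (0.207). RPS27L had 231 and 251 in PANC-1 and 284 and 265 in PZT-2 (0.19 ± 0.11, adjusted p = 0.249), at 0.670% and 0.769% of RPS27 in PANC-1 and 0.917% and 0.819% in PZT-2. RPL7L1 had 3207 and 3297 in PANC-1 and 3059 and 3264 in PZT-2, with overlapping lines (-0.04 ± 0.06, adjusted p = 0.653). RPL7, with 6731 and 7123 in PANC-1 and 7858 and 7610 in PZT-2, had a log2 change of 0.16 ± 0.05 that passed with DESeq2 and without PANC-1 replicate 2 (adjusted p = 0.0659, and 0.0193 without it). None of these 3 paralogs shared a 31-base word with its parent.

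Sequence shared with other genes limits a few values. Of the 82 genes, 48 shared no 31-base word with another gene of the table, and 8 shared more than 10% of theirs. These were RPS10 (55.3%, with the readthrough transcript RPS10-NUDT3), RPL21 (49.0%, with RPL21P28), RPL17 (42.3%) and RPL36A (38.1%), both mostly with readthrough transcripts, RPL13A (42.2%, mostly with RPL13AP5), RPL39 (23.5%), RPL7L1 (14.4%) and RPS20 (11.8%). How reads were split among such copies rests on the authors' estimation, so values of these 8 genes are uncertain to that extent.

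No single transcript of these genes passed the edgeR test. Of 186 transcripts, 67 had an unadjusted p below 0.05 but 0 an adjusted one (lowest adjusted p = 0.0604), where 0.148% of all 30403 transcripts tested were called (0.0691% higher and 0.0789% lower). DESeq2 on the same transcripts called 26 higher and 39 lower, where it called 14.5% of all (7.21% higher and 7.27% lower). Among transcripts with at least 10 counts in all 4 libraries, edgeR called 13 higher and 8 lower of 171, where it called 5.86% of all (3.13% higher and 2.72% lower). In each gene the most abundant transcript was the same in all 4 libraries, and in 64 genes it held at least 90% of the PANC-1 counts. Transcripts that RefSeq lists as noncoding, 11 in 8 genes, were looked at after their values were seen. They held 0.133% and 0.141% of the counts of the set in PANC-1 and 0.206% and 0.216% in PZT-2, and 7 of the 11 were above both PANC-1 libraries in both PZT-2 libraries, as were 25.8% of all transcripts tested and 23.4% of the 4547 noncoding ones. The clearest was a noncoding transcript of RPS9, with normalized counts of 269 and 237 in PANC-1 and 503 and 570 in PZT-2, or 4.25% and 3.85% against 8.61% and 9.63% of the gene (log2 fold change 1.09 ± 0.13, edgeR adjusted p = 0.0785, DESeq2 adjusted p = 9.24e-09). Noncoding transcripts of RPL18 (11.2 and 12.7 against 35.2 and 50.3) and of RPL5 (47.2 and 51.8 against 142 and 91.7) were higher too, with edgeR adjusted p = 0.206 and 0.205. RPS9 as a gene had a log2 change of -0.08 (adjusted p = 0.278).

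Ribosomal proteins whose symbols fall outside the rule were also lower or unresolved. FAU, whose product is cleaved to RPS30, fell by 0.24 ± 0.05 (6535 and 6318 against 5397 and 5496, adjusted p = 0.0141). RACK1, a scaffold on the small subunit, had a log2 change of -0.13 (adjusted p = 0.123), and RPL36AL one of -0.24 (adjusted p = 0.122). In all 3 genes the PZT-2 values were the lower pair, without overlap. Without PZT-2 replicate 1 or replicate 2 the adjusted p was 0.115 and 0.0964 for FAU.

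Other genes with TOP mRNAs split as well: of 16, 3 (18.8%) rose and 5 (31.2%) fell, with a median of -0.08. Over all genes tested, 14.7% rose and 13.7% fell. Of the 440 genes above 300 TPM outside the ribosomal protein set, 16.6% rose and 35.2% fell. EEF1A1, the elongation factor that brings aminoacyl-tRNA, fell by 0.39 ± 0.04 (197063 and 182559 against 146881 and 143531, adjusted p = 0.00154), EIF3F fell by 0.37 ± 0.07 and EEF1D by 0.31 ± 0.05. GAS5, a noncoding TOP transcript that hosts snoRNAs, rose by 1.01 ± 0.09 (889 and 763 against 1615 and 1715, adjusted p = 0.000738). EIF3E rose by 0.29 ± 0.08 and TPT1 by 0.24 ± 0.05. The lines did not overlap in these genes. EEF1A1 and GAS5 held their calls in every alternative run, and the other 4 did not. Without PZT-2 replicate 1 the adjusted p was 0.0669 for EIF3F, and without replicate 1 or replicate 2 it was 0.0517 and 0.0575 for EEF1D, 0.0537 and 0.199 for EIF3E and 0.0644 and 0.142 for TPT1.

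Of 41 large subunit assembly factors, 9 (22%) rose and 8 (19.5%) fell, beside 14.7% and 13.7% of all genes, with a median of -0.05. GNL3, a nucleolar GTPase encoded on chromosome 3, rose from 725 and 856 to 1571 and 1605 (1.00 ± 0.09, adjusted p = 0.000784), and RSL24D1, the placeholder for RPL24 on the precursor, rose by 0.71 ± 0.09 (756 and 697 against 1096 and 1272). EIF6, which keeps the subunits apart until the last steps, fell by 0.52 ± 0.05 (6108 and 5854 against 4133 and 4230, adjusted p = 0.00117). SBDS and EFL1, which together release EIF6, moved in opposite directions: SBDS fell by 0.53 ± 0.07 (1041 and 1053 against 702 and 751) and EFL1 rose by 0.61 ± 0.11 (263 and 304 against 452 and 419). EFL1 and RSL24D1 lie on chromosome 15, where 27.2% of the genes outside the ribosomal protein set rose and 3.61% fell. PPAN fell by 0.42 ± 0.09, but not without PZT-2 replicate 1 (adjusted p = 0.0899).

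Of 53 small subunit assembly factors, 7 (13.2%) rose and 6 (11.3%) fell, shares no higher than the 14.7% and 13.7% of all genes, with a median of -0.02. They were led by WDR43 (0.73 ± 0.09, 943 and 1041 against 1530 and 1752), PNO1 (0.45) and PWP2 (0.42) among those that rose and UTP20 (-0.63 ± 0.14, 1011 and 1281 against 825 and 660), HEATR1 (-0.37) and TBL3 (-0.24) among those that fell. WDR43 and PNO1 lie on chromosome 2, where 24.9% of the genes outside the ribosomal protein set rose and 9.35% fell. WDR43 was called without any 1 library, and without PZT-2 replicate 2 the adjusted p of the others was 0.0637 (PWP2) to 0.189 (TBL3, 0.108 without replicate 1).

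Of 12 proteins of snoRNPs, which modify ribosomal RNA, SHQ1 (0.50), NCL (0.31) and NOP10 (0.22) rose (25%, beside 14.7% of all genes). DKC1 (-0.35) and the methyltransferase FBL (-0.24, 49376 and 46797 against 40872 and 40824) fell (16.7%, beside 13.7% of all genes). SHQ1 lies on chromosome 3, NCL on chromosome 2, NOP10 on chromosome 15, DKC1 on chromosome X and FBL on chromosome 19. Of 8 chaperones dedicated to single ribosomal proteins, RPS19BP1 (0.41) and TSR2, the chaperone of RPS26 (0.31), rose (25%) and GRWD1, that of RPL3 (-0.27), fell (12.5%). Each of these 8 lost its call without at least 1 PZT-2 library. Without replicate 1 the adjusted p was 0.0532 for DKC1, 0.0654 for FBL, 0.0747 for NCL, 0.126 for TSR2, 0.128 for NOP10 and 0.143 for GRWD1, and without replicate 2 it was 0.0573 for RPS19BP1 and 0.0590 for SHQ1. NOP10 and TSR2 were not called without PANC-1 replicate 1 either (0.0568 and 0.0711).

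Among 10 regulators of ribosomal protein mRNA and of the response to unassembled ribosomal proteins, 3 (30%) fell and 0 rose, beside 13.7% and 14.7% of all genes. MDM2 fell by 0.36 ± 0.07 (749 and 784 against 612 and 586, adjusted p = 0.0136), and RPS6KB2 fell by 0.27 ± 0.06. Without PZT-2 replicate 1 or replicate 2 the adjusted p was 0.0517 and 0.0937 for MDM2 and 0.108 and 0.112 for RPS6KB2. MYC (1490 and 1455 against 1435 and 1477), MTOR (2705 and 2652 against 2706 and 2537) and LARP1 (8346 and 7680 against 8114 and 7875) had overlapping lines and changes of -0.02, -0.03 and -0.00. The 78 mitochondrial ribosomal protein genes, for comparison, had 5 (6.41%) that rose and 17 (21.8%) that fell, with a median of -0.11. Over all genes, 14.7% rose and 13.7% fell. The largest changes were of MRPL33 (0.78), MRPS25 (0.76) and MRPL47 (0.58) upwards and MRPL54 (-0.66), MRPS24 (-0.58) and MRPS33 (-0.50) downwards, the last not called without PZT-2 replicate 2. MRPL33 lies on chromosome 2 and MRPS25 and MRPL47 on chromosome 3, while MRPL54 lies on chromosome 19 and MRPS24 and MRPS33 on chromosome 7.

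**Figure D4:**
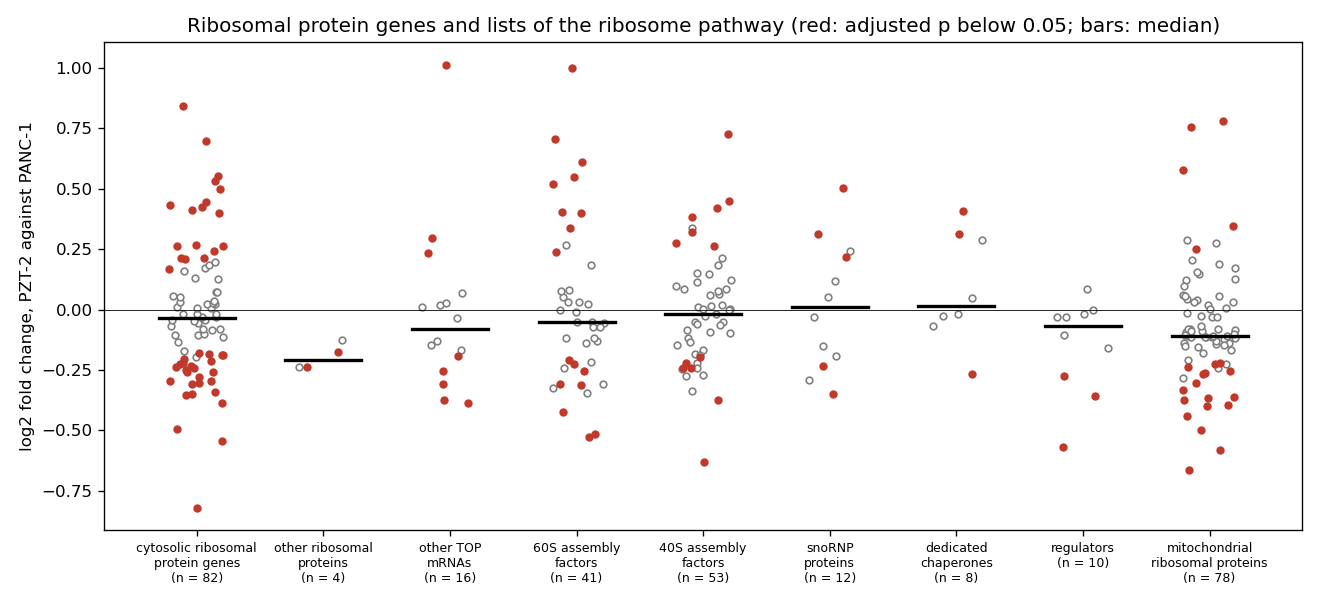
Log2 fold change (vertical axis, PZT-2 against PANC-1) of each gene in the set and in 8 lists of the ribosome pathway, with the list median as a black bar and red points for an adjusted p below 0.05. Each list with more than 10 genes has points on both sides of 0, and the highest points outside the set are GAS5 (1.01) and GNL3 (1.00).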

How the data were processed

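RNA-seq was analysed for 2 PANC-1 and 2 PZT-2 libraries (stranded mRNA, paired reads of 76 bases). Abundances of RefSeq transcripts were estimated by the authors with kallisto 0.43.0 after trimming with Trim Galore 0.4.1 and were exported from sleuth 0.29.0, per the paper and the submitters' notes. The labels name hg19, and the release of the index is not given in the sources used here. The authors deposited estimated counts multiplied by 1 factor per library (1.16, 0.935, 1.03 and 1.01), which was undone by searching for whole numbers (41.1% to 42.8% of low values then lay within 0.01 of one, against 0.915% to 2.39% as deposited). TPM values, deposited by the authors with the same scaling, were rescaled to a sum of 1000000 per library. The columns of the authors' own test were not used.

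Counts were summed per gene and rounded, to totals of 12861446, 15717529, 13955508 and 14175632. Of 31077 transcripts, 27049 were named by the deposited symbol, 3925 through their RefSeq accession in GRCh38.p14, and 103 (0.0466% of counts) stayed unnamed. Of the 186 transcripts of the set, 6 were named through RefSeq (0.724% of its counts). Genes reaching 5 counts in 2 or more libraries were tested with edgeR 4.0.16 (R 4.3.3; TMM factors, quasi-likelihood test, Benjamini-Hochberg adjustment over all 15101 genes, threshold 0.05). Normalized counts are scaled to the mean effective library size. Start sites came from RefSeq on GRCh38.p14 and 31-base words from GENCODE 29. The procedure was tested on simulated data. Alternatives used limma 3.58.1 and DESeq2 1.42.0. With 2 against 2 libraries, an exact permutation test has 3 splits and cannot go below p = 0.33.

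The members, gene lists and tests were chosen with earlier results of these data known. Genes are named by a rule: the paralogs and parents, the 5 largest changes in each direction, the 3 highest and 3 lowest levels, the genes on chromosomes 3 and X, the stalk and RPSA, RPS6, RPS19, RPL5 and RPL11, and up to 3 called genes in each direction per list. Other genes named were chosen after their values were seen. Results for some genes of the set and lists are not reported here.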

Additional observations from a re-analysis of the deposited data

How the results depend on the processing

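Of the 68 genes named by the rule, 59 were called, and 25 of these stayed past the threshold in all 16 alternatives. Over 1088 gene-by-alternative values, 989 kept their status as called or not, 91 lost the call, 8 gained one and 0 were called in the opposite direction. RPL7L1, which was not called, changed sign without PZT-2 replicate 1 (log2 fold change 0.005, against -0.04). Leaving out each library in turn gave 10 to 19 ribosomal protein genes higher, 5 to 30 lower, and a median log2 fold change of -0.0867 (without PANC-1 replicate 2) to -0.00970 (without PANC-1 replicate 1). A lone library is then assumed to vary like the other line, and the low counts were those without a PZT-2 library. The most abundant transcript of each gene alone gave 11 higher and 16 lower. Among gene-level alternatives on all 4 libraries, the share of all genes called is given only for DESeq2 (21.3%, beside 28.4% in the main run). Leaving out chromosomes 3 and X, which was chosen after seeing the data, gave 9 higher and 23 lower of 69 genes. For single transcripts, DESeq2 called 65 and a filter of 10 counts in all 4 libraries called 21, against 0; that filter leaves 20642 of 30403 transcripts to adjust over. The cause was not tested for the other changes. RLE factors, TMM factors without these genes, DESeq2, no filter or a filter of 10 counts, limma-trend on log2(TPM + 1) or log2(TPM + 0.1), the deposited values, length-scaled counts and transcripts without a symbol left out gave 15 to 20 higher and 25 to 28 lower. With the replicate number as a block, 15 rose and 22 fell, with a median of -0.04. The numbers are shared by name only: deviations of same-numbered libraries correlated at -0.04 over 12751 genes, with 2 pairs. The share of counts has no value under alternatives that change only the test, its factors or its filter. The smallest change called among these genes was 0.17 (RPS7) and the largest not called was -0.20 (RPL19) on the log2 scale, which is near the limit of 2 against 2 libraries.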
